A study of Mus musculus with 24 samples.

Results

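The response to added Zn that 4 C2C12 myoblast lines had in common was read from 15 of the 24 RNA-seq libraries, 7 from Zn-treated and 8 from untreated cells. Libraries were chosen by title (Zn or no treatment), the cell line was kept as a block, and *Baf250a* KD Zn replicate 2 was left out for its low total of 495778 counts. A gene was counted as a common responder where its Benjamini-Hochberg adjusted p was under 0.05 and its log2 fold change had the same sign in all 4 lines, and 5 of 15736 genes tested met both conditions.

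The lines were scr control cells, which carry a scrambled shRNA, and 3 KD lines (*Baf180*, *Baf250a*, *Brd9*), which were depleted of 1 subunit each of the SWI/SNF chromatin remodelling complexes, by a stably expressed shRNA under puromycin selection. In the labels *Baf250a* is written BAF250. Each line was grown as proliferating myoblasts without added metal (NT), with 50 µM ZnSO4 or with 100 µM CuSO4 for 48 h, and each condition had 2 replicates. These treatments and the C2C12 line, an immortal line derived from mouse muscle, are as the study's methods give them, while the sample labels name primary mouse myoblasts and a Lipofectamine-mediated knockdown. The 15 libraries held from 12719173 to 75179394 counts (median 21132997). In these libraries *Pbrm1*, which encodes Baf180, stood at 49.2 to 77.4 CPM (counts scaled to library size) in *Baf180* KD cells (n = 4) and 95.4 to 242 CPM in scr cells (n = 4). *Arid1a*, which encodes Baf250a, stood at 91.0 to 105 CPM in its KD (n = 3) against 279 to 314 CPM in scr cells, and *Brd9* at 13.7 to 18.2 CPM (n = 4) against 26.8 to 31.0 CPM. Among myoblast markers, *Des*, a muscle intermediate filament, ran from 798 to 2407 CPM over the libraries, *Myod1* from 72.3 to 160 CPM and *Pax7* from 0.39 to 5.4 CPM. Markers under 1 CPM in all 15 were 4 of 6 for adipocytes, 4 of 5 for osteoblasts, 3 of 5 for macrophages, 2 of 4 for endothelial and 4 of 5 for epithelial cells. Those above it included *Lpl* (up to 107 CPM) and *Pparg* (up to 23.3 CPM) for adipocytes. *Runx2* for osteoblasts reached 159 CPM and *Krt14* for epithelial cells 5.46 CPM. The summed CPM of 5 genes derived from ribosomal RNA was 17290 and 49290 in the untreated scr libraries, 882 to 8206 in the untreated KD libraries and 1059 to 5236 in Zn-treated libraries, and its part in the results below was not tested.

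Cells hold free Zn at very low levels through a small set of dedicated genes. Metallothioneins are short cysteine-rich proteins that bind Zn and Cu, exporters of the SLC30 (ZnT) family move Zn out of the cytosol, and importers of the SLC39 (ZIP) family move it in. The transcription factor MTF1 senses Zn through its zinc fingers and, in mouse cells, activates the metallothionein genes and *Slc30a1* by binding metal response elements (MREs), short sequences with a conserved core, near their start sites.

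Promoter windows from RefSeq (GRCm38.p6) were searched for this core, spelled TGCACNC or TGCGCNC, on both strands. They are shown because the responders *Mt1*, *Mt2*, *Slc30a1* and *Slc39a10* are in the list of *Mtf1* and its known targets used below. A window covers 250 bases before to 50 bases after a gene's start, and 4 of the 5 responders had one (*Egr1* did not). Each is written 5′ to 3′ along the gene's own strand, with matches to the core in capitals. The windows lie at chr8:94178839-94179138 (*Mt1*, plus strand), chr8:94172368-94172667 (*Mt2*, plus strand), chr1:191906531-191906830 (*Slc30a1*, plus strand) and chr1:46853569-46853868 (*Slc39a10*, minus strand, the second of 2 windows for this gene).
Mt1: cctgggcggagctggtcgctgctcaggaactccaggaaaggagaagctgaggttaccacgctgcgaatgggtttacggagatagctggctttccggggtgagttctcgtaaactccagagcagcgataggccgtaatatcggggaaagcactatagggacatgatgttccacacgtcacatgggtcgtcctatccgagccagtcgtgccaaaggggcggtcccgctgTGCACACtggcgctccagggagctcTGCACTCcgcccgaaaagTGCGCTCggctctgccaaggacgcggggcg
Mt2: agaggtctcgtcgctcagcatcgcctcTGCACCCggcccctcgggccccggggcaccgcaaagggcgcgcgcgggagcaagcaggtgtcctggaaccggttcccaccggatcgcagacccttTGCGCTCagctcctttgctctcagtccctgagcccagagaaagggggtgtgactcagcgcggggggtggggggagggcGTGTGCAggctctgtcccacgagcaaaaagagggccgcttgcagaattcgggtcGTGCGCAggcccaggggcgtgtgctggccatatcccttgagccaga
Slc30a1: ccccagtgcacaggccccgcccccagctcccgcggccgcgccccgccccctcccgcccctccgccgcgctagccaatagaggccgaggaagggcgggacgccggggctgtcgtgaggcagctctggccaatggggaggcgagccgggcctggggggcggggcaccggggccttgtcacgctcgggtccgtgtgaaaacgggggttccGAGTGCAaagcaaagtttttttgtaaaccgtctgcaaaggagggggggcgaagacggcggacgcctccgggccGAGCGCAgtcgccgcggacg
Slc39a10: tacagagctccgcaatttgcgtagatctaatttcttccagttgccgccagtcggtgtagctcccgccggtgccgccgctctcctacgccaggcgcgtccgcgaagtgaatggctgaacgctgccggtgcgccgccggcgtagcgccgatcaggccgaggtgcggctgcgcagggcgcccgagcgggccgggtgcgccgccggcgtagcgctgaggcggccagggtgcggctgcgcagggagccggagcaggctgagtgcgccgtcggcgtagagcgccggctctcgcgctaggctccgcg
The *Mt1* window held 3 matches, beginning at -23, 3 and 21 relative to the start. The *Mt2* window held 4, beginning at -223, -128, -50 and 5. The *Slc30a1* window held 2, both on the opposite strand, beginning at -43 and 31. No match was present in either *Slc39a10* window or in that of *Mtf1*. Of all 32851 windows, 25.7% held at least 1 match, 7.11% at least 2, 1.97% at least 3 and 0.517% at least 4. Among the windows of genes tested here the same shares were 35.4%, 11.2%, 3.14% and 0.797%.

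The metallothioneins *Mt2* and *Mt1*, the Zn exporter *Slc30a1* and the immediate early transcription factor *Egr1* were higher with Zn, and the Zn importer *Slc39a10* was lower. The share of all genes tested that were called was 0.0254% for higher and 0.00635% for lower (edgeR quasi-likelihood test, 4 and 1 genes), while 923 genes had an unadjusted p under 0.05. For all 5 the Zn and untreated libraries did not overlap in any of the 4 lines. Of all genes tested, 0.343% were higher and 0.400% lower without such overlap. The 5 were called on these same libraries, so the lack of overlap is a description. In RNA from whole cultures, more transcript per cell and more cells with the transcript cannot be told apart. The 5 genes are the orange points in the plot of fold change against p, and they stand apart from the blue points of genes with one sign and no call.

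**Figure D1:**
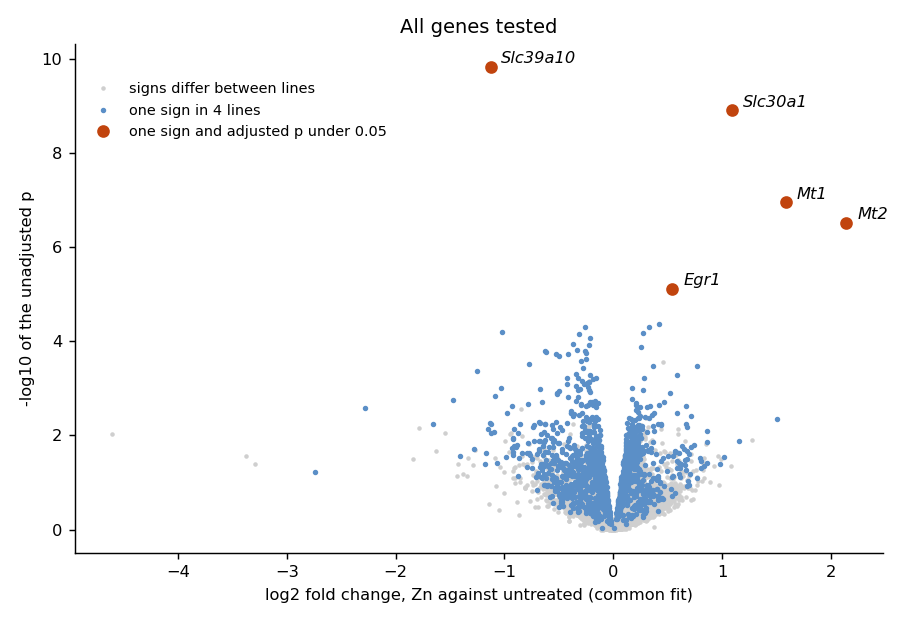
Each point is 1 of 15736 genes, with its log2 fold change (Zn against untreated, 15 libraries, cell line as a block) on the horizontal axis and -log10 of its unadjusted edgeR p on the vertical axis. Grey points have different signs among the lines, blue points one sign in all 4, and the 5 orange points also have an adjusted p under 0.05, with *Slc39a10* at -1.13 and *Mt2* at 2.14.

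*Mt2* (ENSMUSG00000031762, GRCm38 chromosome 8, 94172664 to 94173568) stood at 18.1 and 20.7 CPM in untreated scr cells and at 206 and 200 CPM with Zn. In *Baf180* KD cells it went from 110 and 99.1 to 373 and 311 CPM, and in *Brd9* KD cells from 66.4 and 61.0 to 287 and 266 CPM. In *Baf250a* KD cells it went from 106 and 108 CPM to 211 CPM in the single Zn library. Untreated levels were thus lowest in scr cells and highest in *Baf250a* and *Baf180* KD cells, whereas with Zn the highest levels were in *Baf180* KD cells. The ratio of the mean levels was 10.4 in scr, 4.35 in *Brd9* KD, 3.28 in *Baf180* KD and 1.97 in *Baf250a* KD cells. In the fit the common log2 fold change was 2.14 (SE 0.24, edgeR adjusted p = 0.0012), and the difference between lines passed the test (interaction, edgeR adjusted p = 3.5e-05).

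*Mt1* (ENSMUSG00000031765, chromosome 8, 94179082 to 94180327), the neighbour of *Mt2*, stood at 55.1 and 65.0 CPM in untreated scr cells and at 325 and 298 CPM with Zn. In *Baf180* KD cells the levels were 281 and 224 CPM untreated and 721 and 513 CPM with Zn, and in *Brd9* KD cells 168 and 155 against 507 and 450 CPM. The *Baf250a* KD libraries read 272 and 259 CPM untreated and 492 CPM with Zn. Scr cells again had the lowest untreated levels and the widest ratio of means, 5.19, followed by 2.96 in *Brd9* KD, 2.44 in *Baf180* KD and 1.85 in *Baf250a* KD cells. The common log2 fold change was 1.59 (SE 0.16, edgeR adjusted p = 6.0e-04), with unequal changes among lines (interaction, edgeR adjusted p = 0.0021). *Mt1* and *Mt2* are paralogs whose counts come from uniquely mapped reads alone. The other metallothionein genes, *Mt3* and *Mt4*, had too few counts to be tested.

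*Slc30a1* (ENSMUSG00000037434, chromosome 1, 191906767 to 191913247) encodes ZnT1, the exporter of the plasma membrane. It stood at 10.8 and 11.4 CPM in untreated scr cells and at 31.2 and 28.4 CPM with Zn. The untreated levels of 16.6 and 16.4 CPM in *Baf180* KD cells and 16.8 and 15.2 CPM in *Brd9* KD cells compared with 35.8 and 31.4 CPM and with 32.9 and 30.6 CPM under Zn. *Baf250a* KD cells had the highest levels in both states, 25.4 and 29.2 CPM untreated and 49.0 CPM with Zn. The common log2 fold change was 1.09 (SE 0.079, edgeR adjusted p = 9.9e-06). Per line it was 1.42 (SE 0.11) in scr, 1.03 (SE 0.10) in *Baf180* KD, 0.99 (SE 0.11) in *Brd9* KD and 0.85 (SE 0.12) in *Baf250a* KD cells, and the test of the difference between lines did not pass (edgeR adjusted p = 0.057). The order of the per-line changes in *Slc30a1*, *Mt1* and *Mt2* put scr cells first and *Baf250a* KD cells, with 1 Zn library in the fit, last.

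*Slc39a10* (ENSMUSG00000025986, chromosome 1, 46807544 to 46892852, minus strand) encodes ZIP10, an importer of the plasma membrane. Untreated cells read 38.7 and 33.5 CPM in scr, 38.6 and 38.2 in *Baf180* KD, 38.1 and 36.7 in *Baf250a* KD and 47.7 and 46.8 in *Brd9* KD. With Zn the levels were 19.4 and 19.2 CPM in scr, 17.4 and 14.5 in *Baf180* KD, 18.0 in *Baf250a* KD and 20.4 and 18.7 in *Brd9* KD. Every Zn library lay below every untreated library of any line. The common log2 fold change was -1.13 (SE 0.070, edgeR adjusted p = 2.4e-06), the smallest p of all genes tested. Per line it was -0.90 (SE 0.097) in scr, -1.28 (SE 0.10) in *Baf180* KD, -1.06 (SE 0.13) in *Baf250a* KD and -1.27 (SE 0.10) in *Brd9* KD cells, and the difference between lines did not pass the test (edgeR adjusted p = 0.13). With the correction for GC content and transcript length given below, the per-line values were -1.18, -1.17, -0.95 and -1.25 in the same order.

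*Egr1* (ENSMUSG00000038418), a zinc finger transcription factor induced within minutes by growth factors and stress, varied more between lines than between treatments. It stood at 26.0 CPM in both untreated scr libraries and at 40.7 and 45.6 CPM with Zn, and at 167 and 163 CPM in untreated *Baf180* KD cells against 211 and 208 CPM. In *Brd9* KD cells 63.3 and 60.2 CPM compared with 99.7 and 113 CPM, and in *Baf250a* KD cells 91.7 and 106 CPM with 114 CPM. The common log2 fold change was 0.54 (SE 0.080, edgeR adjusted p = 0.024) and differed between lines (interaction, edgeR adjusted p = 0.012), from 0.21 (SE 0.11) in *Baf250a* KD to 0.78 (SE 0.090) in *Brd9* KD cells. With the GC and length correction scr cells had the largest change, 1.00, against 0.76 in *Brd9* KD and 0.16 in *Baf250a* KD cells. The call was the least stable of the 5: it passed in 5 of the 15 fits that left out 1 library, with adjusted p from 0.0047 to 0.13, against 15 of 15 for each of the other responders. It was also lost without *Brd9* KD cells (adjusted p = 0.52) and without *Baf180* KD cells (adjusted p = 0.20). Without the *Brd9* KD line *Mt1* (log2 fold change 1.58, edgeR adjusted p = 0.059) and *Mt2* (2.14, edgeR adjusted p = 0.10) missed the threshold as well, at nearly the same size, while *Slc30a1* and *Slc39a10* were called in all 4 fits that left out a line.

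**Figure D2:**
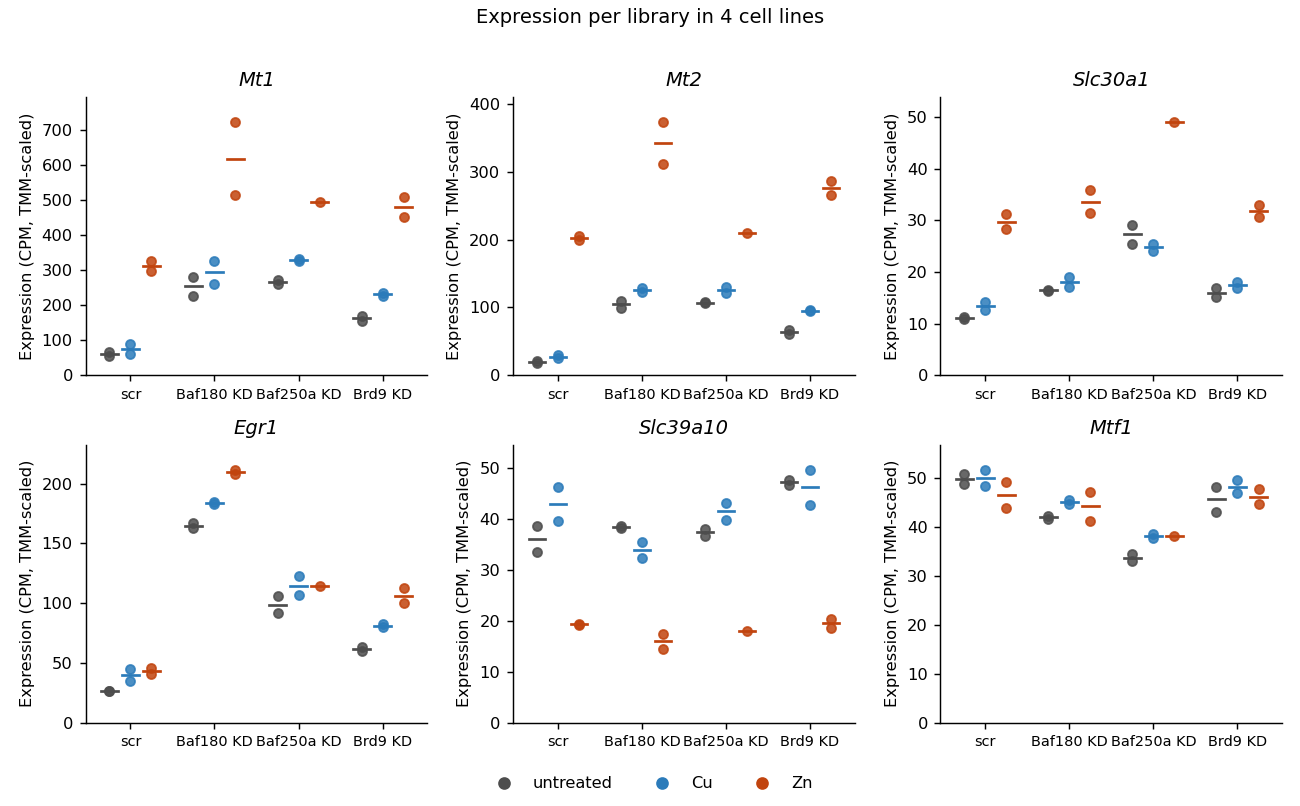
Each point is the expression of a gene in 1 library (CPM, linear axis from 0) in untreated (black), Cu-treated (blue) and Zn-treated (orange) cells of the 4 lines, and the bar is the mean. Untreated and Zn values were scaled over 15 libraries and Cu values over 23; *Slc39a10* with Zn stays between 14.5 and 20.4 CPM in every line, while *Mtf1* shows no common shift.

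*Mtf1* transcripts themselves did not pass the test. They stood between 33.0 and 50.8 CPM in untreated and between 38.2 and 49.2 CPM in Zn-treated libraries, ranges that overlap. The common log2 fold change was 0.03 (SE 0.056, edgeR adjusted p = 1.0), with -0.10 in scr and 0.18 in *Baf250a* KD cells. Of 11 tested genes in a list of *Mtf1* and its known targets, 3 were called higher and 1 lower, and these were the responders already described. The median log2 fold change of this list was 0.05, beside 0.01 over all genes tested.

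**Figure D3:**
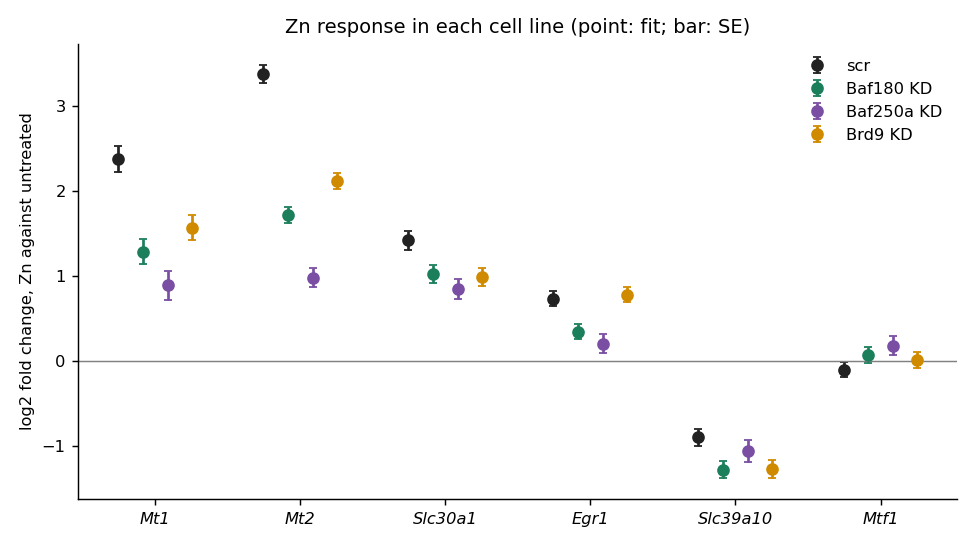
Points are log2 fold changes (Zn against untreated) of 6 genes in each line from 1 fit with a Zn term for every line, and bars are their SE. *Mt1* and *Mt2* spread from 0.89 to 2.37 and from 0.98 to 3.38 among lines, *Slc39a10* from -1.28 to -0.90, and *Mtf1* lies on both sides of 0.

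The library left out of the fit gives values that the choice of genes did not use. *Baf250a* KD Zn replicate 2 had 145 counts of *Mt2* (292 CPM of its own total, exact 95% Poisson interval 247 to 344, for counting error alone), where the untreated libraries of that line had 106 and 110 CPM. *Mt1* had 312 counts (629 CPM, 561 to 703) against 264 to 274 CPM untreated, and *Egr1* 84 counts (169 CPM, 135 to 210) against 92.3 to 108 CPM. *Slc39a10* had 9 counts (18.1 CPM, 8.30 to 34.5) against 37.4 to 38.4 CPM. For these 4 genes the interval lay outside both untreated values, in the direction of the other Zn libraries. The other Zn library of that line read 205 CPM of its own total for *Mt2*, 478 for *Mt1* and 111 for *Egr1*, below these intervals. Its *Slc39a10* level, 17.45 CPM, lay inside the interval. *Slc30a1* had 13 counts (26.2 CPM, 13.96 to 44.8). This interval held the untreated values of 25.6 to 29.7 CPM and lay below the other Zn library of that line (47.6 CPM), so the rise was not seen here. With this library included, the same 5 genes were called.

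Each line was also set aside in turn, and genes were called in the other 3. Called from scr, *Baf250a* and *Brd9* KD cells were *Mt1*, *Mt2*, *Slc30a1* and *Slc39a10*, and all 4 had the same sign in *Baf180* KD cells. Called without *Brd9* KD cells were *Slc30a1* and *Slc39a10*, both with the same sign there. Without *Baf250a* KD cells 8 genes were called and 6 had that sign in *Baf250a* KD cells, and without scr cells 19 were called and 10 had that sign in scr cells. Among all genes with one sign in 3 lines, the share with that sign in the fourth was 22.9% for scr, 52.0% for *Baf180* KD, 53.7% for *Baf250a* KD and 56.3% for *Brd9* KD cells. The median log2 fold change in the fourth line, signed by the call, was 1.27 for *Baf180* KD, 1.13 for *Brd9* KD, 0.53 for *Baf250a* KD and 0.067 for scr cells. With the GC and length correction the scr median turned negative (-0.076) and that of *Baf250a* KD cells was 0.27, and with RLE size factors, another scaling, the latter was 0.84.

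One sign in all 4 lines, without a test, was found for 1350 genes, 565 higher and 785 lower, 8.58% of those tested. Their median absolute log2 fold change was 0.19. Only *Mt1*, *Mt2*, *Slc30a1* and *Slc39a10* combined one sign, a change of at least 0.5 in every line and a mean of at least 10 CPM. The Zn response differed between lines for 4521 genes, 28.7% of those tested (interaction, edgeR adjusted p under 0.05). Tested line by line in the same fit, Zn changed 5060 genes in scr (32.2%), 16 in *Baf180* KD (0.102%), 1595 in *Baf250a* KD (10.1%) and 6 in *Brd9* KD cells (0.0381%). The scr count rests on the untreated libraries that were rich in genes derived from ribosomal RNA, and the median change of these 5 genes on the log2 scale was -7.59 in scr cells against -0.75 to 0.06 in the KD lines. The *Baf250a* KD count rests on 1 Zn library that is assumed to vary like the other groups. Across 15415 genes with a GC value, the log2 fold changes had a Spearman correlation with GC content of -0.65 in scr, 0.43 in *Baf180* KD, 0.32 in *Baf250a* KD and 0.10 in *Brd9* KD cells, and of -0.22 in the common fit; the genes of a line share its libraries, so this is a description. Once every library's trend in GC content and in transcript length had been taken out, 18 genes were common responders (0.114%), 11 higher and 7 lower, and all 5 genes above were among them. The genes that differed between lines then numbered 2869, and those called in single lines 2650 in scr and 66 in *Baf180* KD cells.

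Genes whose Zn and untreated libraries did not overlap in any line numbered 54 higher with Zn (0.343%) and 63 lower (0.400%). Apart from the 5 responders none of these 117 genes was called by edgeR in the common fit (51 of the 54 and 62 of the 63 had an unadjusted p under 0.05), so the values that follow are descriptions, and the genes taken from this group were chosen after their values were seen. The lower group included *Slc39a13*, the Zn importer ZIP13 of the secretory pathway, at a log2 change of -0.16 (SE 0.046, edgeR adjusted p = 0.56). In the Slc39 family 10 members were tested, all had a negative log2 fold change in the common fit, 3 had a negative one in every line, and 1 was called. Most of these values were small, with a family median of -0.04. The medians per line were -0.26 in scr, 0.01 in *Baf180* KD, -0.02 in *Baf250a* KD and -0.06 in *Brd9* KD cells. In the Slc30 family 6 were tested, 4 had a positive value (53.9% of all genes tested did), and *Slc30a1* was the 1 called. *Slc30a5*, an exporter of the Golgi, reached 0.11 on the log2 scale (SE 0.051, edgeR adjusted p = 0.87).

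The list of 24 myogenic genes had a median of -0.15, with 9 members of one negative sign in all lines, 2 of one positive sign and 5 with a positive common value, where 53.9% of all genes tested were positive. Of the 24 genes, edgeR called none, with 9 at an unadjusted p under 0.05, and DESeq2's Wald test called 5 lower, *Acta1*, *Actc1*, *Mymk*, *Myod1* and the acetylcholine receptor subunit *Chrna1*. Over all genes with a DESeq2 adjusted p, 0.101% were called higher and 0.332% lower. Members without overlap in any line were *Acta1* and *Actc1*, both with lower values, and *Tnnt2*, a troponin, at 0.37 on the log2 scale (SE 0.11, edgeR adjusted p = 0.53). Per line the *Tnnt2* value was 1.03 in *Baf250a* KD cells, from 1 Zn library, and 0.19 to 0.24 in the others. *Acta1*, skeletal muscle alpha actin, stood at 60.0 and 63.2 CPM in untreated scr cells and 49.2 and 49.0 CPM with Zn, and at 66.6 and 58.2 against 46.8 and 45.5 CPM in *Baf180* KD cells. In *Baf250a* KD cells 35.9 and 31.8 CPM compared with 27.4 CPM, and in *Brd9* KD cells 22.97 and 22.8 with 21.6 and 19.0 CPM. Its common log2 fold change was -0.31 (SE 0.057, edgeR adjusted p = 0.10). *Actc1*, cardiac alpha actin, had -0.53 (SE 0.11, edgeR adjusted p = 0.13), *Acta2*, smooth muscle alpha actin, -0.30 (SE 0.062, edgeR adjusted p = 0.17), and *Dmpk*, the myotonic dystrophy kinase, -0.26 (SE 0.046, edgeR adjusted p = 0.0999). *Actg2*, *Klhl41* and *Xirp1* had values from -0.29 to -0.23. *Mymk*, the fusion protein Myomaker, had -0.62 (SE 0.12, edgeR adjusted p = 0.13, DESeq2 adjusted p = 0.0022) and *Myod1*, the myogenic master regulator, -0.22 (SE 0.051, edgeR adjusted p = 0.27, DESeq2 adjusted p = 0.028), both with overlap between groups in at least 1 line. The atypical cadherins *Fat1* and *Fat4*, at -0.21 (SE 0.039) and -0.23 (SE 0.043), the collagen *Col12a1* at -0.26 (SE 0.052) and the antioxidant selenoenzyme *Gpx1* at -0.41 (SE 0.083) were also lower without overlap. *Gpx1* and *Col12a1*, with *Acta2* and *Cnn1*, a smooth muscle calponin, were among the 7 genes called lower after the GC and length correction, beside *Adamts4*, *Masp1* and *Slc39a10*. DESeq2 called 47 common responders, 11 higher and 36 lower, among them 10 of the 54 and 25 of the 63 genes without overlap. *Acta1* (DESeq2 adjusted p = 7.0e-04), *Actc1* (DESeq2 adjusted p = 0.0021) and *Acta2* (DESeq2 adjusted p = 0.0033) were called lower by DESeq2 and not by edgeR.

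NRF2 targets, the genes of glutathione synthesis and detoxification that answer to electrophiles, had positive values in 25 of 28 tested and one positive sign in all lines in 7, with a median of 0.11. Of all 15736 genes tested, 53.9% were positive, 565 had one positive sign and 923 an unadjusted p under 0.05. The list medians per line were -0.02 in scr, 0.19 in *Baf180* KD, 0.19 in *Baf250a* KD and 0.14 in *Brd9* KD cells. Of the 28, edgeR called none, with 11 at an unadjusted p under 0.05, and DESeq2 called *Gsta4* (DESeq2 adjusted p = 0.0013), *Gclm* (DESeq2 adjusted p = 0.0019) and *Slc7a11* (DESeq2 adjusted p = 0.0074) higher. *Gsta4*, a glutathione transferase, stood at 279 and 273 CPM in untreated scr cells and at 341 and 303 CPM with Zn, at 156 and 139 against 210 and 185 CPM in *Baf180* KD, at 95.8 and 84.1 against 145 CPM in *Baf250a* KD and at 240 and 216 against 340 and 272 CPM in *Brd9* KD cells. No line overlapped, and its log2 fold change was 0.42 (SE 0.072, edgeR adjusted p = 0.0999). *Gclm* and *Gclc*, the subunits of glutamate-cysteine ligase, had 0.26 (SE 0.050) and 0.12 (SE 0.043), also without overlap. *Slc7a11*, the cystine importer, had 0.59 (SE 0.13, edgeR adjusted p = 0.24) and *Nqo1*, a quinone reductase, 0.31 (SE 0.084, edgeR adjusted p = 0.44). After the GC and length correction *Gsta4* (0.42, edgeR adjusted p = 5.4e-04) and *Slc7a11* (0.52, edgeR adjusted p = 0.041) were called, as were *Ier2*, *Ngfr*, *Hist1h2al*, *Dock8* and *Itgb3*. The histone gene *Hist1h2al* belongs to a family of near-identical copies, so its count is uncertain.

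Other lists held small values that differed among the lines. Immediate early genes had a median of 0.10 over 22 tested with *Egr1* called. *Egr2* had 0.52 (SE 0.13, edgeR adjusted p = 0.34), and *Ier2* had -0.07 in scr and from 0.62 to 0.71 in the KD lines. After the GC and length correction *Ier2* had 0.34 in scr and from 0.47 to 0.60 in the KD lines. G2/M genes were positive in 53 of 54 tested (median 0.19) and S phase genes in 43 of 43 (median 0.12), beside 53.9% of all genes tested. Neither edgeR nor DESeq2 called any of them, and 20 G2/M and 7 S phase genes had an unadjusted edgeR p under 0.05. The cell cycle values were not alike among lines: the G2/M medians were 0.20 in scr, 0.07 in *Baf180* KD, 0.39 in *Baf250a* KD and -0.003 in *Brd9* KD cells, and 41 of the 54 genes differed between lines. The S phase medians were -0.04 in scr, 0.16 in *Baf180* KD, 0.50 in *Baf250a* KD (1 Zn library) and 0.02 in *Brd9* KD cells, and 25 of the 43 genes differed. *Ccnb1*, the mitotic cyclin, had 0.23 (SE 0.064) and *Pcna*, the replication clamp, 0.26 (SE 0.083). Sterol synthesis genes were positive in 20 of 21 (median 0.11), 7 of the 21 at an unadjusted edgeR p under 0.05 and none called by either tool, with *Hmgcs1* at 0.24 (SE 0.068). Their medians were -0.03 in scr, 0.25 in *Baf180* KD, 0.21 in *Baf250a* KD and 0.03 in *Brd9* KD cells. Oxidative phosphorylation genes had medians of -0.34 in scr and 0.30 in *Baf250a* KD cells, and cytosolic ribosomal protein genes -0.38 and 0.26, so that their common medians were near 0. Heat shock chaperones (median 0.06 over 20), the ATF4 response (0.03 over 23), endoplasmic reticulum stress (0.02 over 16), iron handling (0.04 over 18), p53 targets (-0.09 over 20) and SWI/SNF subunits (0.02 over 26) had no member called by edgeR or DESeq2 and from 0 to 2 members each at an unadjusted edgeR p under 0.05.

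**Figure D4:**
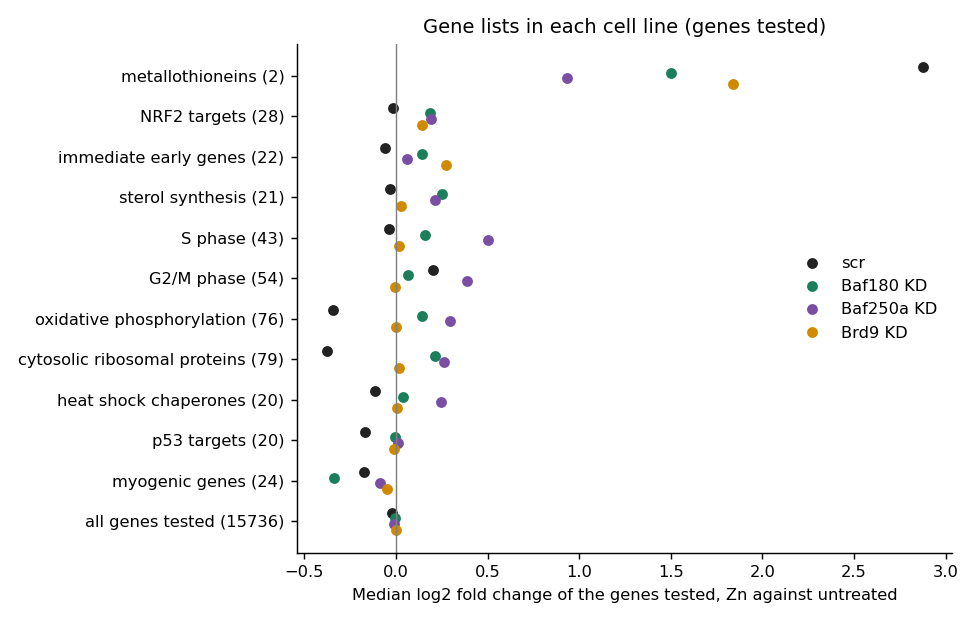
Points are the median log2 fold change (Zn against untreated) of the genes tested in a list, 1 point for each line, with the number tested in brackets. Metallothioneins lie from 0.93 to 2.88, while oxidative phosphorylation and ribosomal protein genes lie below 0 in scr cells and above 0 in the KD lines.

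Cu at 100 µM, for the same time and in the same lines, gave a second metal to compare at a higher dose. Zn and Cu libraries were contrasted directly in a fit of 23 libraries, since both metals share the untreated cells, and 829 of 16115 genes differed (5.14%), 279 higher with Zn and 550 lower. The responders had been called on the same Zn libraries, so this contrast is not independent of their choice. Against untreated cells Cu changed 661 genes (4.10%). *Mt2* ranged from 24.7 to 130 CPM (median 108) over the 8 Cu libraries and differed between metals by 1.82 on the log2 scale (SE 0.20, edgeR adjusted p = 9.9e-06, higher with Zn). *Mt1* (1.27, SE 0.15, edgeR adjusted p = 1.7e-05) and *Slc30a1* (0.97, SE 0.072, edgeR adjusted p = 2.4e-08) were also higher with Zn than with Cu. *Slc39a10* stood at 32.4 to 49.7 CPM with Cu and was lower with Zn (-1.20, SE 0.069, edgeR adjusted p = 2.2e-10). Relative to untreated cells the Cu values of these 4 genes were 0.38 (SE 0.19) for *Mt2*, 0.34 (SE 0.14) for *Mt1*, 0.10 (SE 0.071) for *Slc30a1* and 0.06 (SE 0.064) for *Slc39a10*, and none passed the test. *Egr1* was higher with Cu than in untreated cells (0.34, SE 0.073, edgeR adjusted p = 0.0070), and its difference between Zn and Cu was 0.18 (SE 0.075, edgeR adjusted p = 0.16), which did not pass.

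**Figure D5:**
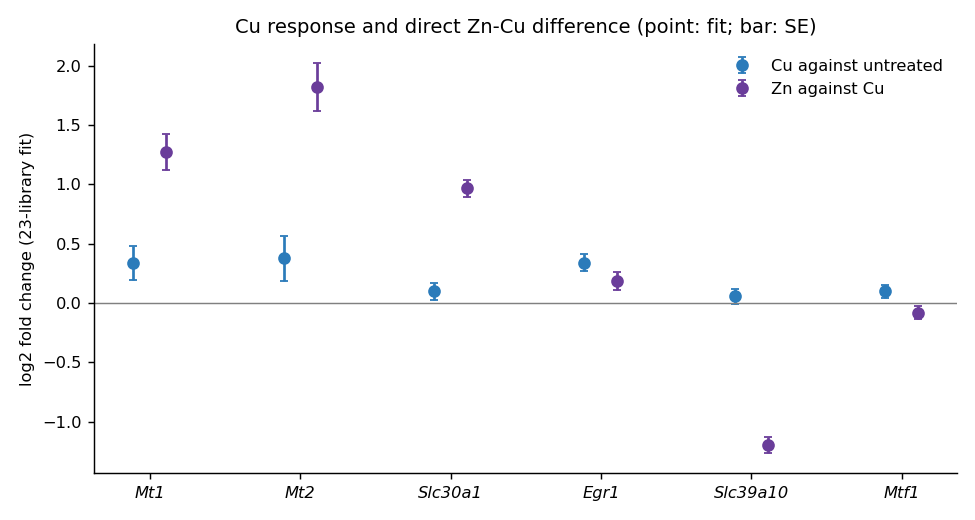
For 6 genes, blue points are the log2 fold change with Cu against untreated cells and purple points the direct difference between Zn and Cu, both from the 23-library fit, with SE bars. The purple points of *Mt1*, *Mt2* and *Slc30a1* lie at 1.27, 1.82 and 0.97 and that of *Slc39a10* at -1.20, while the blue points of these 4 genes lie between 0.06 and 0.38.

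Genes of other lists separated the metals as well. *Gsta4* differed by -0.70 (SE 0.083, edgeR adjusted p = 2.0e-05), *Nqo1* by -0.71 (SE 0.089, edgeR adjusted p = 3.1e-05) and *Gclc* by -0.45 (SE 0.050, edgeR adjusted p = 1.0e-05), all lower with Zn than with Cu. *Cox17*, a copper chaperone of mitochondria, differed by 0.35 (SE 0.074, edgeR adjusted p = 0.0066), with a Cu value of -0.57 (SE 0.071) and a Zn value of -0.20 (SE 0.081, edgeR adjusted p = 0.81) in the common fit.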

How the data were processed

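RNA-seq libraries were made from C2C12 myoblasts of 4 lines after depletion of ribosomal RNA with a strand-specific kit. The authors aligned read pairs to mm10 with STAR, kept uniquely mapped reads and deposited whole-number counts per gene from featureCounts (55291 symbols), which were not normalized. Their deposited DESeq2 comparison tables (fold changes and p-values) were not used here. Samples were grouped by title, because the treatment tag contradicts the titles.

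The counts were compared in R 4.3.3 with edgeR 4.0.16 (TMM, filterByExpr, glmQLFit and glmQLFTest, Benjamini-Hochberg over all genes tested), with cell line as a block, and CPM are TMM-scaled. Replicates are described as independent biological replicates. The p-values of a common metal term measure the spread around 1 change shared by all lines. That spread takes in differences between lines as well as between replicates. The p-values per line and of the interaction measure the spread of replicates, and *Baf250a* KD Zn has 1 library there. The fits were tested on simulated data with known changes. The correction for GC content and transcript length (GENCODE M21, GRCm38) used a spline with 5 degrees of freedom per library as an offset. DESeq2 1.42.0 gave no adjusted p for 4882 genes by its own filter. Alternatives are listed in the closing section.

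Named genes were *Mt1*, *Mt2*, *Slc30a1*, *Slc39a10* and *Mtf1*, the common responders with a mean of at least 1 CPM, and up to 4 members of each of 25 gene lists with the smallest p; a selection of these is given. Genes without overlap or called only in an alternative (such as *Gpx1*, *Acta2*, *Actg2*, *Dmpk*, *Fat1* and *Gclc*) were chosen after their values were seen. The responders and lists were chosen with earlier results of these data known.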

Additional observations from a re-analysis of the deposited data

Results flagged for a closer look

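The Zn response differed between cell lines for 4521 genes (interaction in edgeR, adjusted p under 0.05), and of the genes named here the same test passed for *Mt2* (adjusted p = 3.5e-05), *Mt1* (0.0021), *Egr1* (0.012), *Hist1h2al* (0.0012), *Ier2* (0.0017), *Top2a* (0.0090), *Hmgcs1* (0.014), *Cnn1* (0.029) and *Dlgap5* (0.030). *Mt1* and *Mt2* rose in every line, most in scr and least in *Baf250a* KD cells, which had 1 Zn library in the fit. *Top2a* had a log2 fold change of 0.50 in scr and 0.49 in *Baf250a* KD cells but 0.03 after *Baf180* KD and -0.002 after *Brd9* KD, and *Dlgap5* had 0.60 in *Baf250a* KD and from 0.09 to 0.19 elsewhere. *Hist1h2al* ran from -0.36 in scr to 1.09 in *Baf250a* KD cells. After the GC and length correction its scr value was positive, 0.50, and the lines ran from 0.28 in *Brd9* KD to 0.94 in *Baf250a* KD cells. The troponin gene *Tnnt2* passed the same test as well, with 1.03 in *Baf250a* KD cells and from 0.19 to 0.24 elsewhere. *Cnn1* was at -0.95 to -0.75 in the other lines and at -8.0e-04 in *Baf250a* KD cells. *Hmgcs1* had -0.02 in *Brd9* KD and 0.50 in scr cells.

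The shallow *Baf250a* KD Zn library, which the common fit left out, held *Mt1* at 629 CPM, *Mt2* at 292 CPM and *Egr1* at 169 CPM of its own total. By the exact Poisson interval all were above the untreated libraries of that line. They were also above its other Zn library (478, 205 and 111 CPM). Groups of 1 or 2 libraries were not tested for single libraries far from the rest.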

How the results depend on the processing

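*Slc30a1* and *Slc39a10* were called under all 14 alternatives other than leaving out 1 library, with log2 fold changes of 0.97 to 1.14 and -1.21 to -1.10. *Mt1* was lost only without *Brd9* KD cells (adjusted p = 0.059). *Mt2* was lost there (0.10), with the replicate number as a block (0.066) and with the block and the GC and length correction (0.079), and *Egr1* in these 3 fits (0.52, 0.17 and 0.19) and without *Baf180* KD cells (0.20). No named gene that was called changed its sign.

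The 5 common responders (4 higher, 1 lower) became 33 (9 and 24) with all genes of at least 1 count, 47 (11 and 36) with DESeq2, 18 (11 and 7) with the GC and length correction, 9 (5 lower) with all 23 libraries in the fit, 19 (12 and 7) without scr, 8 (4 lower) without *Baf250a* KD and 2 (1 higher) without *Brd9* KD cells. RLE size factors, a mean of at least 1 CPM, thinning to 12719173 counts and the shallow library left the count at 5, and a minimum fold change of 1.5 gave 4. Leaving out 1 library gave 4 to 8 (3 to 5 higher, 1 to 4 lower). The 8 came without the only *Baf250a* KD Zn library, which leaves 3 lines to share a sign. The genes that differed between lines fell to 2869 with the GC and length correction and ran from 2309 (without scr Zn replicate 2) to 5324 without 1 library (2679 without scr NT replicate 2). Members of lists called went from 5 to 8 with that correction. Calls per line became 2650 in scr and 66 in *Baf180* KD cells with it, and 817 (*Baf180* KD) and 32 (*Brd9* KD) with genes of at least 1 count. With it, genes of the held-out test with the same sign were 17 of 49 in scr and 13 of 18 in *Baf250a* KD cells. Zn against Cu gave 1617 genes with at least 1 count, 1280 with DESeq2, and 503 (without scr Zn replicate 2) to 1359 (without scr Cu replicate 2) without 1 library, including 522 without *Baf180* KD Cu replicate 2, 521 without *Brd9* KD Cu replicate 2 and 1268 without scr NT replicate 2.

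Same-numbered replicates deviated from their group means with correlations of -0.11 (scr), 0.28 (*Baf180* KD) and 0.23 (*Brd9* KD). As these were not of one sign, the numbers were not taken as pairs in the main fit. The correlations in *Baf180* and *Brd9* KD cells were positive, and the count of 5 common responders rests on this choice. The replicate block gave 3 common responders (*Mt1* and *Slc30a1* higher, *Slc39a10* lower), 7 with the GC and length correction (3 lower), and 527 genes between Zn and Cu. Except as stated, the cause of these shifts was not tested. Depth limits genes of few counts, and *Baf250a* KD cells rest on 1 Zn library.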
